A study of Mus musculus with 8 samples.

Results

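The transcripts analysed here were those of Trp53, the gene of the transcription factor p53, and of 9 genes that p53 is known to switch on directly, namely Mdm2, Cdkn1a, Ccng1, Btg2, Rrm2b, Plk2, Trp53inp1, Phlda3 and Gadd45a. The genes were taken by name as well-known members of the p53 response, and all 10 were present among the 24460 genes counted in every library. Earlier results of these data were known when these genes and the gene lists below were chosen. Counts of called genes are therefore descriptions. The study asked how RHPS4, a positively charged small molecule that binds and stabilises G-quadruplexes (4-stranded structures of guanine-rich nucleic acid), acts on mitochondrial DNA and its transcripts. Total RNA depleted of ribosomal RNA was sequenced from wild type mouse embryonic fibroblasts (MEFs) grown with 0 µM (n = 3), 2 µM (n = 3) or 10 µM RHPS4 (n = 2). No deleted or overexpressed gene is named for any group. The labels name more than one exposure time for the study. The sources used here do not say which of them these libraries had, or how old the embryos were. Whether the MEFs were primary or immortalised, and the state of p53 in them, are not given there either. Nor is it said that the replicates were separate cultures, so that p-values measure only the spread between these libraries.

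p53 is held at a low level in unstressed cells because MDM2, its ubiquitin ligase, marks it for degradation, and MDM2 is itself made from a p53 target gene, which closes a negative feedback loop. DNA damage and other stresses stabilise the p53 protein, which then binds a response element made of a pair of 10-base half-sites and raises transcription of genes for cell cycle arrest, DNA repair, nucleotide supply and cell death. Control of p53 is thus largely at the level of the protein, and the counts below measure mRNA only. Several of the targets are also known to respond to other factors: Btg2 and Plk2 were first described as immediate early genes, and Gadd45a is also reached by FoxO factors and by ATF4.

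The libraries held 10455965 to 26688121 counts. Values are given as CPM, a gene's count as a share of its library's total after scaling of the totals by the trimmed mean of M values (TMM). Scaling to raw totals instead moved the median log2 fold change of all tested genes from 0.02 to 0.23 between 0 and 10 µM, and changes below are relative to the TMM scale. All 10 fibroblast markers examined were tested, and summed to 8924 to 9738 CPM at 0 µM, 8359 to 9298 CPM at 2 µM and 8019 to 8525 CPM at 10 µM. From 0 to 10 µM the estimate was below 0 for all 10 (median -0.35), with Pdgfrb called lower (-0.60, a call lost when scaled to raw totals). Scaled to raw totals, 6 of the 10 were below 0 and 4 above (median -0.13). The sums were then 8552 to 8972 CPM at 0 µM and 8816 to 9269 CPM at 10 µM. The sum of 6 epithelial markers was 2.91 to 3.93 CPM at 0 µM, 3.57 to 5.02 CPM at 2 µM and 4.53 to 5.07 CPM at 10 µM, and that of 6 leukocyte and endothelial markers 8.81 to 13.4 CPM over all libraries. The part of these markers in the values below was not tested. The share of counts from the mitochondrial genome was 13.2 to 14.4% at 0 µM, 7.40 to 8.26% at 2 µM and 5.33 to 6.32% at 10 µM; its part in the values below was not tested. Replicate 1 of the 0 µM group was the shallowest library, and its counts differed more from those of its partners (chi-square per degree of freedom of 15.4 and 20.2) than theirs did from each other (3.23). In bulk RNA, fewer cells with a transcript and less of it per cell cannot be told apart.

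Promoters of 8 of the 10 genes were matched in RefSeq (build GRCm38.p6; 250 bases before to 50 bases after the start site, with 2 windows for Cdkn1a); Rrm2b and Trp53inp1 were not matched. Each window was searched on both strands for the p53 response element (2 half-sites of 10 bases, at most 1 base between them, with the C and G of each 4-base core kept). Of 32851 mouse promoters of the same length, 0.11% held a match with at most 1 mismatch. The upstream window of Cdkn1a and the window of Ccng1 were 2 of these. The other Cdkn1a window had 7 mismatches at best, and 59.8% of promoters held a match as good. The 2 stretches are shown because each held a match with at most 1 mismatch. Capitals mark the core of each half-site. The Cdkn1a stretch lies at chr17:29090908-29090967 on the plus strand, the site starting 51 bases before the start site of the upstream window. The Ccng1 stretch lies at chr11:40755442-40755501 on the minus strand, the site starting 195 bases before the start site.
Cdkn1a: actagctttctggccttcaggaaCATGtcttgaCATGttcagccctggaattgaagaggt
Ccng1: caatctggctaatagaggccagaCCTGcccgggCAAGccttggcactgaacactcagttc

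The same search gave 3 mismatches as the best match for Trp53 (a match as good stood in 2.82% of promoters), 5 for Plk2 and Phlda3 (22.9%), 7 for Btg2, 9 for Mdm2 and 12 for Gadd45a. No match in such a short window says nothing of response elements elsewhere in a gene. The cAMP response element TGACGTCA, bound by factors of the CREB and ATF family, stood in the windows of Btg2 and Plk2 and in 1.79% of all promoters. Those stretches are shown because they held this element. Capitals mark the element. The Btg2 stretch lies at chr1:134079288-134079347 on the minus strand, and the Plk2 stretch at chr13:110394956-110395015 on the plus strand.
Btg2: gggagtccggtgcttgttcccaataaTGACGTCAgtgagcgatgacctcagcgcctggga
Plk2: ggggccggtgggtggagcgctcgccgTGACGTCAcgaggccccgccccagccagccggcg

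The element began 166 bases before the Btg2 start site and 62 bases before that of Plk2. The C/EBP-ATF element TGATGNAAN was found in none of the 9 windows and in 3.95% of all promoters. The FoxO element TGTTTAC was found for Mdm2 only, and in 3.65% of all promoters. These matches describe the letters of the windows and are not evidence of binding.

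At 10 µM RHPS4, 5 of the 10 transcripts rose against 0 µM: Gadd45a, Btg2, Trp53inp1, Rrm2b and Plk2. The other 5, Trp53 itself with Mdm2, Cdkn1a, Ccng1 and Phlda3, did not rise, and for 4 of these 5 the estimate was below 0. A gene was called when its adjusted p was under 0.01 and its change over 1.5-fold (edgeR quasi-likelihood test, Benjamini-Hochberg adjustment over 14296 tested genes). By this rule 3.09% of all tested genes were called in this comparison, 1.95% upward and 1.14% downward (279 and 163 genes, or 846 and 68 when scaled to raw totals). The same 5 transcripts passed when scaled to raw totals. Without replicate 2 of the 10 µM group only Btg2 and Gadd45a rose by this rule, and without replicate 2 or replicate 3 of the 0 µM group Btg2, Rrm2b and Gadd45a did. The median log2 fold change over the 10 transcripts was 0.35, against 0.02 over all tested genes. Both 10 µM libraries stood above all 0 µM libraries for 5 of the 10, where 22.9% of all tested genes did so, and below them for 2 of the 10, where 20% did so.

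**Figure D1:**
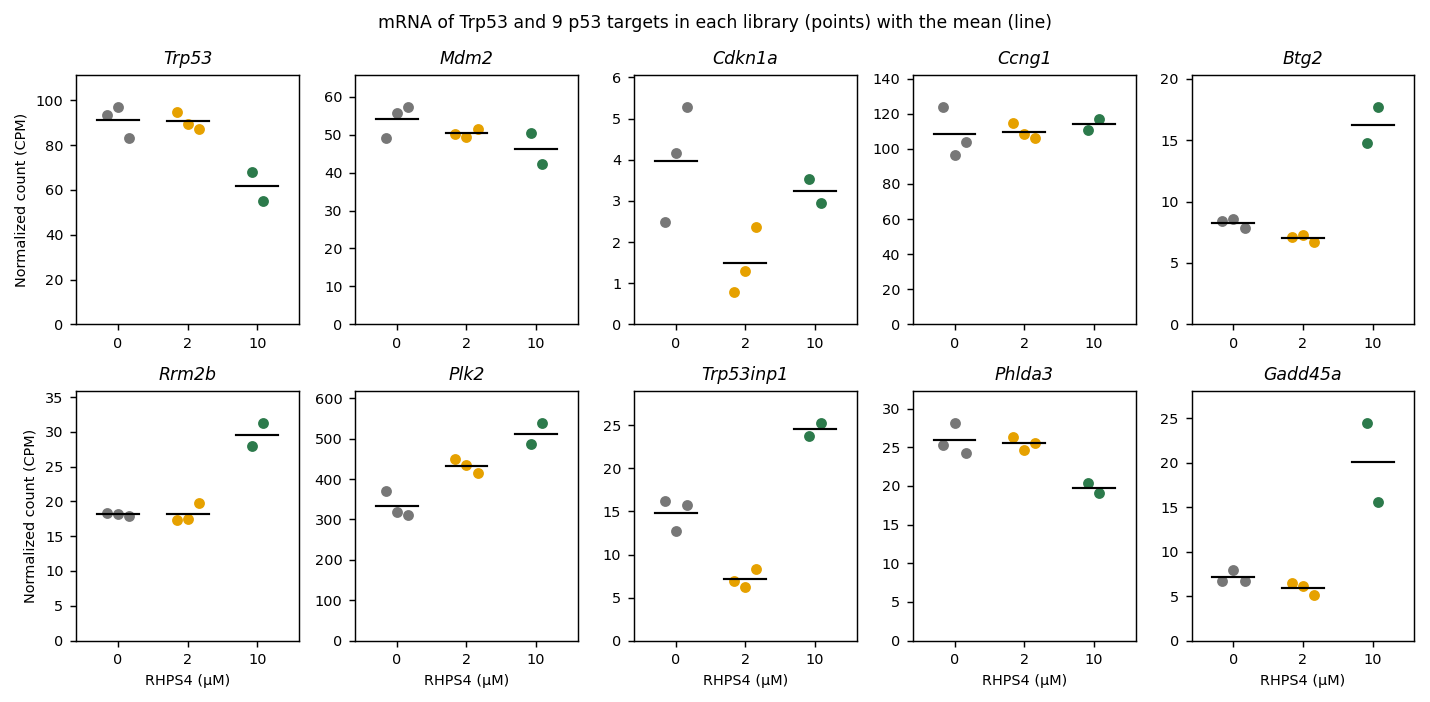
Normalized count in CPM (vertical axes, each starting at 0) of each transcript against the RHPS4 dose in µM. Points are libraries and lines are group means; the points at 10 µM lie above all others for Btg2, Rrm2b, Plk2, Trp53inp1 and Gadd45a and below all others for Trp53 and Phlda3.

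At 2 µM RHPS4 a single transcript of the 10 was called against 0 µM, and it fell: Trp53inp1. In that comparison 0.497% of all tested genes were called, 0.119% upward and 0.378% downward. The median log2 fold change of the 10 was -0.06, against -0.01 over all tested genes. Between 2 and 10 µM, 4 of the 10 rose (Gadd45a, Trp53inp1, Btg2 and Rrm2b), where 5.51% of all tested genes were called, 3.92% upward and 1.59% downward, and the median of the 10 was 0.47 against 0.03. Both 10 µM libraries stood above all 2 µM libraries for 6 of the 10 (27% of all tested genes) and below them for 2 (24.9%). From 0 to 2 µM the libraries separated upward for 1 of the 10 (12.7%) and downward for 4 (12.9%). The comparisons share libraries, so that they are not independent of each other.

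**Figure D2:**
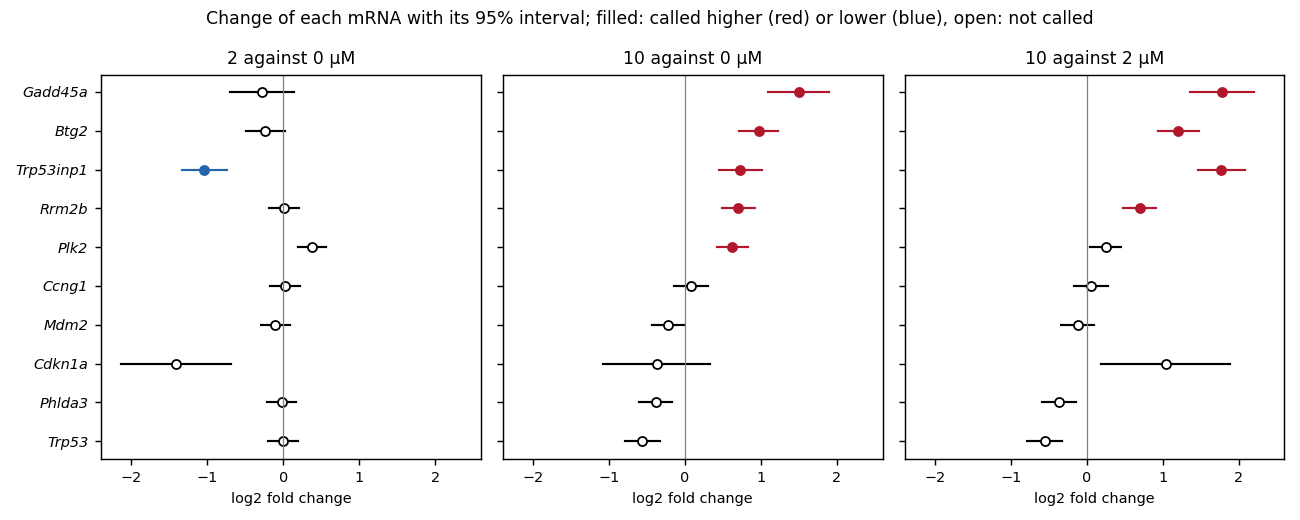
Log2 fold change (horizontal axes) of each transcript in the 3 comparisons, with lines for the 95% interval. Filled points passed the test, red for higher and blue for lower; from top to bottom the order is that of the change from 0 to 10 µM, with Gadd45a highest at 1.49 and Trp53 lowest at -0.56.

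Trp53, on chromosome 11 (69580359 to 69591873, plus strand, GRCm38), encodes p53 itself. Its normalized count was 93.2, 96.9 and 83.2 CPM in the 0 µM libraries, 94.9, 89.6 and 87.3 CPM at 2 µM, and 67.95 and 55.1 CPM at 10 µM. Both 10 µM libraries were thus below every other library, while the 0 and 2 µM libraries overlapped. The log2 fold change from 0 to 10 µM was -0.56 (SE 0.104, 95% interval -0.79 to -0.34, adjusted p = 0.00522 by edgeR), a 1.48-fold lower level, which fell just short of the 1.5-fold minimum and was not counted as a call. DESeq2, with a log2 fold change of -0.60 and adjusted p = 5.07e-05, put it past that minimum, as did edgeR without replicate 3 of the 0 µM group (-0.62) or replicate 1 of the 10 µM group (-0.75). From 2 to 10 µM it was also -0.56 (adjusted p = 0.00355 by edgeR) and passed without replicate 1 of the 0 µM group (-0.59), replicate 3 of the 2 µM group (-0.61) or replicate 1 of the 10 µM group (-0.76). Over 16 alternatives the change of Trp53 from 0 to 10 µM ran from -0.75 to -0.35. From 0 to 2 µM the log2 fold change of Trp53 was -0.01 (95% interval -0.21 to 0.19).

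Mdm2, on chromosome 10 (117688875 to 117710758, minus strand), encodes the ligase that p53 induces against itself. It was counted at 49.1, 55.7 and 57.2 CPM at 0 µM, 50.2, 49.2 and 51.5 CPM at 2 µM, and 50.5 and 42.2 CPM at 10 µM. The 3 groups overlapped. The log2 fold change from 0 to 10 µM was -0.22 (SE 0.0986, 95% interval -0.44 to -0.01, adjusted p = 0.156 by edgeR), so that the interval holds no increase on the TMM scale; scaled to raw totals the value was -0.01. Between 2 and 10 µM it was -0.12 (95% interval -0.34 to 0.10), or 0.0162 scaled to raw totals.

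Among the genes of cell cycle arrest, Cdkn1a on chromosome 17 (29090976 to 29100727, plus strand) encodes p21, the inhibitor of cyclin-dependent kinases through which p53 holds cells in G1. It was a rare transcript here, with 24, 84 and 133 raw counts in the 0 µM libraries, 9, 16 and 40 in those at 2 µM, and 58 and 41 in those at 10 µM. In normalized counts these were 2.49, 4.16 and 5.28 CPM at 0 µM, 0.793, 1.30 and 2.38 CPM at 2 µM, and 3.54 and 2.95 CPM at 10 µM. The 10 µM libraries lay within the range of the 0 µM libraries, and all 2 µM libraries lay below both groups. The log2 fold change from 0 to 10 µM was -0.38 (SE 0.3198, 95% interval -1.08 to 0.33, adjusted p = 0.471 by edgeR). The value moved with the libraries kept, from -0.57 without replicate 1 of the 0 µM group to -0.10 without replicate 3 of that group, and was 0.019 with the replicate number as a block. From 0 to 2 µM it was -1.41 (SE 0.331, 95% interval -2.14 to -0.69), which did not pass (adjusted p = 0.0398 by edgeR). Cdkn1a overlaps the opposite-strand gene AC167363.2, and the strand setting of the counting is not given. The change at 2 µM did pass in 2 of 15 alternatives. These were DESeq2 (-1.40, adjusted p = 0.00486) and edgeR without replicate 1 of the 0 µM group, the library that stood apart (-1.57, adjusted p = 0.00878). Over the 15 alternatives the change at 2 µM ran from -1.99 to -1.15. From 2 to 10 µM the value was 1.04 (95% interval 0.19 to 1.89, adjusted p = 0.0749 by edgeR).

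Ccng1, on chromosome 11 (40748552 to 40755311, minus strand), encodes cyclin G1, which recruits protein phosphatase 2A to MDM2 and is among the most regular p53 targets. Its levels were 124, 96.6 and 104 CPM at 0 µM, 115, 108 and 106 CPM at 2 µM, and 111 and 117 CPM at 10 µM. These groups overlapped throughout. The log2 fold change from 0 to 10 µM was 0.08 (SE 0.100, 95% interval -0.14 to 0.30, adjusted p = 0.640 by edgeR), and from 0 to 2 µM it was 0.02 (95% interval -0.17 to 0.22). Scaled to raw totals the change from 0 to 10 µM was 0.298 (adjusted p = 0.0339 by edgeR), where all tested genes stood at 0.23, and it was not called there either. Cdkn1a, the other gene with a close p53 site in a promoter window, had the wider interval of the pair.

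Btg2, on chromosome 1 (134075170 to 134079120, minus strand), encodes an antiproliferative protein that promotes removal of the poly(A) tail of mRNAs. It was counted at 8.41, 8.62 and 7.86 CPM at 0 µM, 7.14, 7.26 and 6.72 CPM at 2 µM, and 14.8 and 17.7 CPM at 10 µM. The 10 µM libraries lay well above the rest, and the 2 µM libraries all lay below those at 0 µM. The rise from 0 to 10 µM was 1.96-fold (log2 fold change 0.97, SE 0.118, adjusted p = 0.000383 by edgeR). The difference at 2 µM, -0.24 (95% interval -0.50 to 0.02), did not pass the test (adjusted p = 0.275 by edgeR).

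Gadd45a, on chromosome 6 (67035096 to 67037457, minus strand), encodes a small stress protein that binds p21, PCNA and kinases of the p38 and JNK pathways. Its levels were 6.64, 7.98 and 6.67 CPM at 0 µM, 6.52, 6.11 and 5.11 CPM at 2 µM, and 24.4 and 15.6 CPM at 10 µM. The groups at 0 and 10 µM did not overlap, although the pair of 10 µM libraries differed more for Gadd45a than for the other transcripts that rose. The rise was 2.82-fold (log2 fold change 1.49, SE 0.181, 95% interval 1.10 to 1.89, adjusted p = 0.000383 by edgeR). With each library left out in turn the log2 fold change ran from 1.10 to 1.75. Gadd45a overlaps a transcript of the opposite strand, E230016M11Rik, which received 4 to 37 counts per library against 64 to 400 for Gadd45a. The strand setting of the counting is not given in the sources used here, so that reads of the pair may not be fully separated.

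Plk2, on chromosome 13 (110395046 to 110400844, plus strand), encodes a polo-like kinase of centriole duplication that is induced by serum and by p53. It was the most abundant of the 10 by raw and normalized count, with 370.1, 319 and 311 CPM in the 0 µM libraries, 449, 434 and 414 CPM in those at 2 µM, and 486 and 538 CPM in those at 10 µM. The 3 groups were separate and in the order of the dose. The rise from 0 to 10 µM was 1.54-fold (log2 fold change 0.62, SE 0.0917, adjusted p = 0.00146 by edgeR), close to the fold minimum, and the call was lost in 6 of 16 alternative analyses, DESeq2 (0.58), no filter on low counts (0.58) and the replicate block (0.58) among them. Those that left out a library were without replicate 2 (0.57, adjusted p = 0.0116 by edgeR) or replicate 3 (0.58, adjusted p = 0.00846) of the 0 µM group and without replicate 2 of the 10 µM group (0.52, adjusted p = 0.0289). The 2 µM value of 0.38 (95% interval 0.19 to 0.56) did not pass (adjusted p = 0.0338 by edgeR), nor did the step from 2 to 10 µM (0.25, adjusted p = 0.0762).

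Rrm2b, on chromosome 15 (37923952 to 37961318, minus strand), encodes p53R2, the ribonucleotide reductase subunit that supplies deoxynucleotides for repair and for mitochondrial DNA outside S phase. Its levels were 18.4, 18.2 and 17.9 CPM at 0 µM, 17.3, 17.5 and 19.8 CPM at 2 µM, and 27.9 and 31.2 CPM at 10 µM. The 2 µM libraries straddled those at 0 µM and the 10 µM libraries stood above both. The rise from 0 to 10 µM was 1.63-fold (log2 fold change 0.70, SE 0.0971, adjusted p = 0.000926 by edgeR), and from 0 to 2 µM the log2 fold change was 0.01 (95% interval -0.19 to 0.21). The call at 10 µM was lost without replicate 2 of the 10 µM group (0.59, adjusted p = 0.0201 by edgeR), as was that from 2 to 10 µM (0.57 against 0.69 with all libraries). Rrm2b overlaps the pseudogene Gm3362 on its own strand and the antisense gene Gm49085.

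Trp53inp1, on chromosome 4 (11156431 to 11174379, plus strand), encodes a nuclear stress protein that helps p53 kinases act and takes part in autophagy and cell death. It was counted at 16.2, 12.7 and 15.7 CPM at 0 µM, 6.88, 6.20 and 8.26 CPM at 2 µM, and 23.8 and 25.3 CPM at 10 µM. The 3 groups did not overlap, and their order did not follow the dose. From 0 to 2 µM it fell to a level 2.06-fold lower (log2 fold change -1.04, SE 0.135, 95% interval -1.34 to -0.75, adjusted p = 0.00247 by edgeR). From 0 to 10 µM it rose 1.66-fold (0.73, SE 0.130, adjusted p = 0.00442). From 2 to 10 µM it rose 3.41-fold (1.77, SE 0.142, adjusted p = 1.33e-05), a call kept in all 16 alternatives. The call at 2 µM was lost without replicate 3 of the 0 µM group (-0.99, adjusted p = 0.0176 by edgeR) and without replicate 1 (-1.01, adjusted p = 0.0146) or replicate 2 (-0.95, adjusted p = 0.0239) of the 2 µM group, and the call from 0 to 10 µM was lost in 5 of 16 alternatives. These were without replicate 2 (0.60, adjusted p = 0.0259 by edgeR) or replicate 3 (0.79, adjusted p = 0.0127) of the 0 µM group, without replicate 1 (0.74, adjusted p = 0.0241) or replicate 2 (0.66, adjusted p = 0.0514) of the 10 µM group, and with only the groups compared in the fit (0.73, adjusted p = 0.0101).

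Phlda3, on chromosome 1 (135766119 to 135769136, plus strand), encodes a pleckstrin homology protein that competes with AKT for membrane lipids and so dampens survival signalling. Its levels were 25.3, 28.1 and 24.3 CPM at 0 µM, 26.4, 24.7 and 25.5 CPM at 2 µM, and 20.4 and 19.1 CPM at 10 µM. Both 10 µM libraries were the lowest. The log2 fold change from 0 to 10 µM was -0.39 (SE 0.0981, 95% interval -0.60 to -0.17), which did not pass (adjusted p = 0.0232 by edgeR). Over 16 alternatives it ran from -0.47 to -0.17. From 0 to 2 µM it was -0.02 (95% interval -0.21 to 0.17).

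Divided by exon length, the transcripts spanned a wide range of levels. At 0 µM the order by mean CPM per kilobase was Plk2 with 74.2 ± 7.17 (SD, n = 3), Ccng1 with 30.8 ± 3.99, Trp53 with 22.5 ± 1.76, Phlda3 with 16.6 ± 1.27, Mdm2 with 10.6 ± 0.850, Gadd45a with 4.02 ± 0.433, Btg2 with 3.02 ± 0.143, Trp53inp1 with 2.30 ± 0.289, Rrm2b with 1.99 ± 0.0236 and Cdkn1a with 1.12 ± 0.395. Only Trp53inp1 and Rrm2b, neighbours in this order, had overlapping libraries. Plk2 stood at percentile 96.5 of the tested genes by this measure and Cdkn1a at percentile 27.6.

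The order shifted at the higher dose. At 10 µM Gadd45a reached 11.3 ± 3.53 (SD, n = 2) CPM per kilobase and overlapped Phlda3 (12.7 ± 0.570) and Mdm2 (9.11 ± 1.16), and at 2 µM Trp53inp1 (1.10 ± 0.163, n = 3) lay below Rrm2b (1.99 ± 0.152). Cdkn1a was last at every dose, with 0.420 ± 0.228 at 2 µM and 0.913 ± 0.118 at 10 µM. The 5 transcripts highest at 0 µM included 1 of those that rose at 10 µM, Plk2, and the 5 lowest included the other 4.

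**Figure D3:**
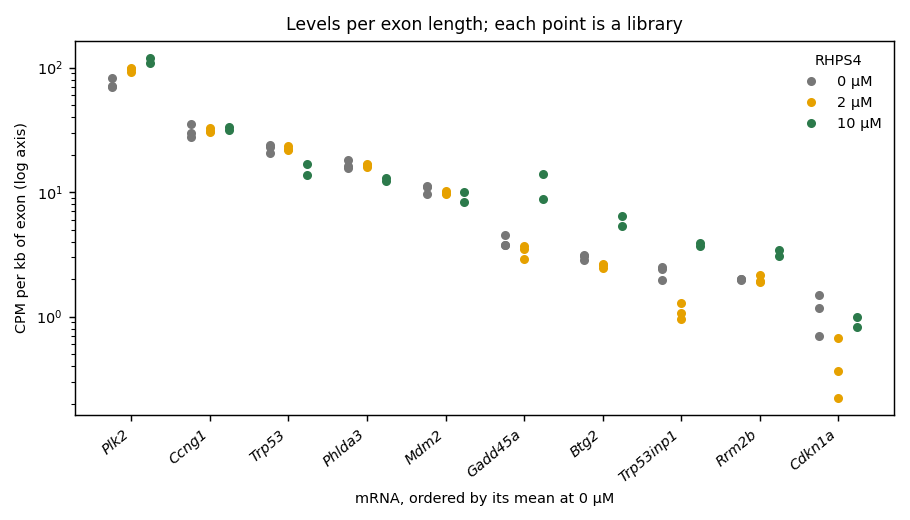
CPM per kilobase of exon (vertical log axis) of each transcript, ordered from left to right by its mean at 0 µM, with a point for each library coloured by RHPS4 dose. Plk2 lies at the top (74.2 at 0 µM) and Cdkn1a at the bottom (1.12), and the 10 µM points of Gadd45a, Btg2, Trp53inp1 and Rrm2b rise towards the middle of the range.

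Across the 8 libraries, as a description over points that share dose groups, Btg2 moved most closely with Rrm2b (Pearson's r = 0.95 on log2 CPM) and Gadd45a (0.93), and Trp53 with Phlda3 (0.97). The tested genes with patterns most like that of Btg2 were Psrc1 (0.995), Idua (0.990) and Aldh1l2 (0.989), and those most like Gadd45a were Fyn (0.989), Srpk2 (0.988) and H1f0 (0.984). For Rrm2b they were Impact (0.990), Ivd (0.989) and Mttp (0.987), for Plk2 Ostm1 (0.990), Foxred1 (0.988) and Nqo1 (0.986), and for Trp53inp1 Fam46a (0.991), Nbr1 (0.989) and Wsb1 (0.988). None of the 10 was among the 3 nearest genes of these 5. Those were picked from 14295 genes each, so that little can be read from this absence.

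A wider set of p53 genes was described from the same fit. It held 49 genes, 46 of them tested (Pmaip1, Trp53i11 and Trp73 were too low, with at most 12 counts in any library): regulators of p53, further targets of arrest and repair, targets of cell death, and the relative Trp63. From 0 to 10 µM 2 of the 46 rose, which is 4.35% against 1.95% of all tested genes called upward (3.09% in either direction). None of the 46 fell, where 1.14% of all tested genes were called downward. The median log2 fold change of the 46 was 0.04 (0.25 scaled to raw totals, where all tested genes stood at 0.23 and 4 of the 46 rose). At an unadjusted p under 0.05, 8 were higher (17.4%, against 14.8% of all tested genes) and 11 lower (23.9%, against 14.6%). Whether the wider set differed from the 10 was not tested.

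Of the genes that rose, Sesn2 encodes a sestrin that restrains mTORC1, and Ppp1r15a encodes GADD34, which guides a phosphatase to eIF2α. Both are also known targets of the integrated stress response. Sesn2 was counted at 9.86, 12.6 and 10.8 CPM at 0 µM, 11.4, 13.9 and 11.7 CPM at 2 µM, and 33.4 and 31.15 CPM at 10 µM. The 10 µM libraries stood apart from all the others, with a log2 fold change of 1.53 (SE 0.119, adjusted p = 1.79e-05 by edgeR). The highest estimate among the 10 was close to it, at 1.49 (SE 0.181) for Gadd45a, and the difference was not tested. Ppp1r15a was counted at 13.9, 13.4 and 14.3 CPM at 0 µM and at 27.5 and 22.2 CPM at 10 µM (0.84, SE 0.130, adjusted p = 0.00196 by edgeR), a call lost without replicate 2 of the 0 µM group or replicate 1 of the 10 µM group, with an adjusted p of at most 0.0268.

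None of 14 regulators of p53 was called between 0 and 10 µM by edgeR (3.09% of all tested genes were), 0 by DESeq2 and 1 when scaled to raw totals. At an unadjusted p under 0.05, 2 were higher (14.3%, against 14.8% of all tested genes) and 4 lower (28.6%, against 14.6%). The log2 fold changes of the 14 ran from -0.41 to 0.46. The genes at either end, the deubiquitinase Usp7 (-0.41, adjusted p = 0.00548 by edgeR) and the DNA repair kinase Prkdc (0.46, adjusted p = 0.00703), singled out after their values were seen, passed the adjusted p and missed the fold minimum. None of 12 tested targets of cell death, such as Bax and Bbc3, was called by edgeR either, 0 by DESeq2 and 1 when scaled to raw totals. At an unadjusted p under 0.05, 3 were higher (25%, against 14.8% of all tested genes) and 2 lower (16.7%, against 14.6%). The log2 fold changes of the 12 ran from -0.83 to 0.51. At 2 µM 1 of the 46 was called (2.17%, against 0.497% of all tested genes): Ccng2, for cyclin G2, fell (log2 fold change -0.89, SE 0.0905, adjusted p = 0.00109 by edgeR), a call lost without replicate 2 of the 2 µM group (adjusted p = 0.0141). It went from 72.9, 72.8 and 88.0 CPM at 0 µM to 43.5, 43.0 and 39.9 CPM at 2 µM, and was at 54.9 and 59.9 CPM at 10 µM. From 2 to 10 µM 3 of the 46 were called (6.52%, against 5.51% of all tested genes). Sesn2 (1.39, adjusted p = 2.44e-05) and Ppp1r15a (1.05, adjusted p = 0.000408) rose and Aen, an apoptosis-enhancing nuclease, fell (-0.68, adjusted p = 0.0032 by edgeR). The call of Aen was kept in 12 of 16 alternatives and lost when scaled to raw totals, without replicate 2 of the 2 µM group and without either library of the 10 µM group.

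**Figure D4:**
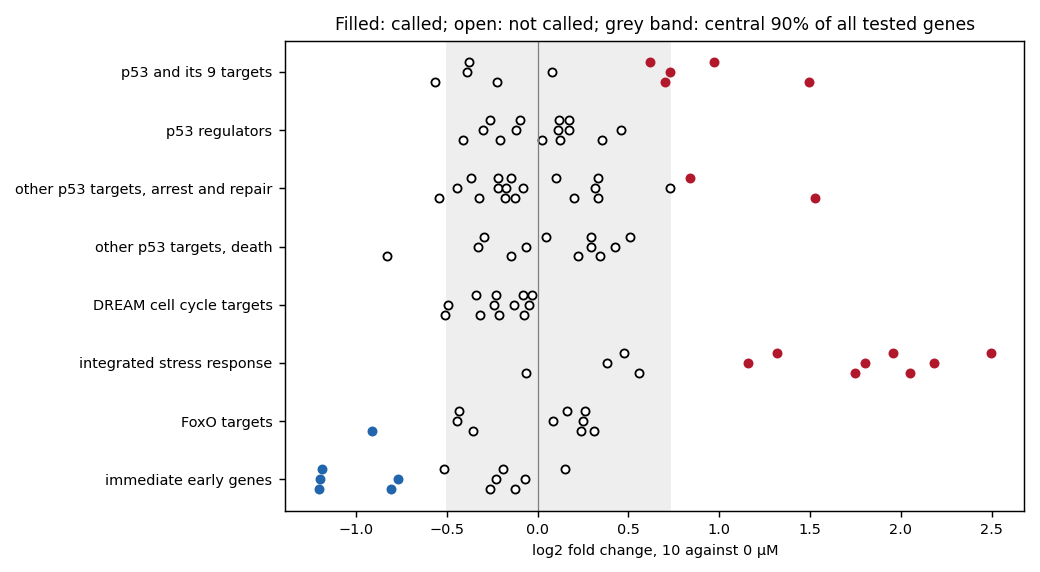
Log2 fold change from 0 to 10 µM (horizontal axis) of the tested genes of each list (rows; points are offset vertically to separate them). Filled points passed the test (red higher, blue lower) and the grey band holds the central 90% of all tested genes, from -0.50 to 0.73; the p53 regulators and death targets show open points only, and 8 of 12 genes of the integrated stress response lie to the right of the band.

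p53 lowers genes of the G2 and M phases through p21 and the DREAM complex, so 12 of these genes, among them Ccnb1 and Plk1, were described beside Cdkn1a. None was called between 0 and 10 µM by edgeR or by DESeq2, but all 12 estimates were below 0, from -0.51 to -0.03 with a median of -0.22, except when scaled to raw totals, where 6 were above 0 and 6 below. On the TMM scale 7 (58.3%) were lower at an unadjusted p under 0.05, as were 14.6% of all tested genes. Their summed level was 3984 to 4315 CPM at 0 µM, 4195 to 4411 CPM at 2 µM and 3482 to 3501 CPM at 10 µM. Scaled to raw totals the sums overlapped, at 3783 to 3976 CPM for 0 µM and 3807 to 3829 CPM for 10 µM.

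Lists for other pathways known to reach some of the same genes moved as follows. These lists too were chosen with earlier results of these data known, so that their shares are descriptions. Of 12 genes of the integrated stress response, 8 rose between 0 and 10 µM (66.7%, against 1.95% of all tested genes called upward). These were Trib3 (2.495), Vldlr (2.18), Chac1 (2.05), Atf3 (1.96), Slc7a11 (1.80), Aldh1l2 (1.75), Ddit3 (1.32) and Asns (1.16, all as log2 fold changes). At 2 µM none of the 12 was called by edgeR, and DESeq2 called 1 lower. At an unadjusted p under 0.05, 4 were higher (33.3%, against 10.1% of all tested genes) and 4 lower (33.3%, against 11.2%). This dose pattern, a rise at 10 µM with no call at 2 µM, was also that of Gadd45a, Btg2, Rrm2b and Plk2, and of 266 of the 279 genes called higher at 10 µM (95.3%).

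Of 10 FoxO targets, 6 fell at 2 µM against 0 µM (60%, against 0.378% of all tested genes called downward). They were Txnip (-1.12), Ccng2 (-0.89), Bnip3 (-0.80), Klhl24 (-0.80), Pik3ip1 (-0.79) and Sesn3 (-0.79). These calls were kept in 16 of 16 alternatives for Txnip and Klhl24, 15 for Ccng2, 12 for Bnip3, 11 for Pik3ip1 and 5 for Sesn3. From 2 to 10 µM Txnip (1.28), Pik3ip1 (1.05), Klhl24 (0.88) and Fbxo32 (0.78) rose, where 3.92% of all tested genes were called upward. Trp53inp1 likewise fell at 2 µM and rose from 2 to 10 µM, and among the 10 it was the only transcript called in both of these comparisons. Bnip3 was also lower at 10 µM than at 0 µM (-0.91).

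Of 12 immediate early genes, 5 fell between 0 and 10 µM (41.7%, against 1.14% of all tested genes called downward). They were Fosb (-1.21), Fosl1 (-1.20), Fos (-1.18), Nr4a1 (-0.81) and Dusp1 (-0.77), of which Fosl1 was kept in 16 of 16 alternatives and Fosb in 9. None of the 12 rose, where 1.95% of all tested genes were called upward. Btg2 and Plk2, which share that description, are not on this list. At 2 µM Fos (-1.65), Fosb (-1.45) and Nr4a1 (-1.01) fell and Cyr61 (0.67) rose, and from 2 to 10 µM Fosl1 (-1.26) and Cyr61 (-0.79) fell. Of all tested genes, 0.378% were called downward and 0.119% upward at 2 µM, and 1.59% downward from 2 to 10 µM. The part of any of these pathways in the values of the p53 targets was not tested.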

How the data were processed

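Total RNA of 8 MEF libraries was sequenced after ribosomal RNA depletion with a stranded kit. The authors deposited raw counts per gene, made with FastQC, Trim Galore, Cutadapt, STAR 2.5.2a (mm10) and featureCounts on uniquely mapped fragments; the gene annotation and strand setting are not given in the sources used here, and the authors tested with DESeq2. Groups follow the dose in the labels.

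Here the counts were fitted with edgeR 4.0.16 in R 4.3.3 (TMM scaling, filterByExpr, glmQLFit and glmQLFTest, dose as the only factor, all 8 libraries), which tested 14296 of 24460 genes, all 10 p53 genes included. P-values were adjusted by the Benjamini-Hochberg method across every tested gene, and a call needs an adjusted p under 0.01 and a change over 1.5-fold. SE is the log2 fold change divided by the square root of F. CPM used TMM library sizes. Exon lengths and positions came from GENCODE M21 (GRCm38) by symbol; promoters came from RefSeq. Stretches of 75 bases shared with other genes made up at most 2.1% of any of the 10 genes. On simulated data for 10 against 0 µM (13913 genes), the fit called 100 of 100 genes changed by 2 on the log2 scale, 95 of 100 changed by 1 and 0 of 13713 unchanged. Changes were placed only in genes with higher counts, and the spread of each gene followed the trend over all genes. Recovery at low counts or of smaller changes was not simulated.

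The 10 genes and all lists were chosen with earlier results of these data known, so their counts are descriptions. Text names all 10 genes, list genes called in any comparison (of the marker lists, Pdgfrb alone, at -0.60 from 0 to 10 µM), and the 3 tested genes most correlated with each called member. Alternatives were other scalings and filters, DESeq2 1.42.0, only the compared groups, a replicate block, no minimum fold and each library left out.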

Additional observations from a re-analysis of the deposited data

How the results depend on the processing

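Over 16 alternatives, the 10 to 0 µM calls of Btg2 and Gadd45a were kept in every one. Of all comparisons of single p53 genes with their values under an alternative, 427 kept direction and side of the threshold, 16 lost the call, 13 gained it and 21 changed sign; the cause was not tested. The number of the 10 genes called at 10 against 0 µM ran from 2 (without 10 µM replicate 2) to 5 with a library left out, being 3 without replicate 2 of the 0 µM group, at 2 against 0 µM from 0 to 2, and at 10 against 2 µM from 3 to 5. Over all genes, leaving out a library gave 6 to 144 calls at 2 against 0 µM (71 with all), 235 to 633 at 10 against 0 µM (442) and 444 to 884 at 10 against 2 µM (788), and in the wider p53 set 0 to 1, 1 to 3 and 2 to 4. The extremes were without 2 µM replicate 2 (6), without 0 µM replicate 1 (144 and 633) and without 10 µM replicate 2 (235 and 444). DESeq2 called 109 genes at 2 against 0 µM, 2 of the 10 among them, and split its 10 against 0 µM calls into 235 higher and 269 lower (279 and 163 by edgeR). Without a minimum fold the counts were 107, 747 and 1539, with 4 of the wider set at 10 against 0 µM and 7 at 10 against 2 µM. Scaling to total counts moved the median of all genes to 0.23 at 10 against 0 µM and gave 914 calls (846 higher and 68 lower), 4 of the wider set among them, against 26 higher and 40 lower at 2 against 0 µM (17 and 54 with TMM) and 923 and 84 at 10 against 2 µM (561 and 227). With no filter on low counts 275 were higher and 285 lower.

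Trp53 passed the threshold at 10 against 0 µM with no filter (-0.60), with DESeq2 (-0.60), with the replicate block (-0.62) and without 0 µM replicate 3 (-0.62) or 10 µM replicate 1 (-0.75), and its adjusted p over all alternatives ran from 5.07e-05 to 0.0526. Signs changed for log2 values near 0 in the fit with all libraries, except for Cdkn1a at 10 against 0 µM (-0.38, and 0.019 with the block): Trp53 at 2 against 0 µM (0.0029 with TMM over nuclear genes, 0.0736 with total counts, 0.0011 with only the compared groups, and -0.0714 to 0.0476 with libraries left out), Mdm2 at 10 against 2 µM (0.0162 with total counts), Phlda3 at 2 against 0 µM (0.0569 with total counts, -0.0729 to 0.0503 with libraries left out), Rrm2b at 2 against 0 µM (-0.0556 to 0.0454), Ccng1 at 2 against 0 µM (-0.0456 to 0.133), 10 against 0 µM (-0.0141 to 0.158, and 0.298 with total counts) and 10 against 2 µM (-0.0223 to 0.0843). The replicate numbers were not taken as pairs in the main fit, and whether they mark pairs was not settled. Same-numbered libraries at 0 and 2 µM correlated by 0.20, 0.08 and 0.16, above the different-numbered ones (-0.15 to 0.06). Depth rose with the replicate number in both of these groups, so that pairing and depth cannot be told apart in these values. Same-numbered libraries at 0 and 10 µM correlated by -0.15 and -0.10. With 2 libraries at 10 µM, deviations from the group mean mirror each other, so these values cannot decide on pairing. With the replicate block 54, 322 and 735 genes were called, and 1, 5 and 5 of the 10; at 10 against 0 µM the block lost Plk2 and gained Trp53 (lower). A search of wider windows for p53 sites was not run. Cdkn1a had the fewest counts of the 10 genes, at 9 to 133 per library; depth and spread between replicates were not separated.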
